A study of Mus musculus with 6 samples.

Results

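Ribosome footprints of mouse embryonic stem cells with a knockdown of pyruvate kinase M were compared with those of control cells, gene by gene. Both footprint libraries, 2 of the 6 libraries of the series, were chosen by their labels, and all 6535 rows of the deposited table entered the comparison. The cells were wild-type E14 mouse embryonic stem cells, an established line, grown on gelatin in serum medium with LIF. One library came from cells given a non-targeting siRNA pool (siCtrl) and the other from cells given siRNA against PKM1 and PKM2 (siPKM). Each siRNA was used at 20 nM for 36 h, and both cultures were passaged 16 h before harvest. Before lysis, both received cycloheximide, which stalls elongating ribosomes, at 100 µg/ml for 2 min. The remaining libraries were total RNA from the same siRNA conditions (1 each) and 2 CLIP replicates, which map RNA crosslinked to FLAG-HA-tagged PKM2. With 1 footprint library per condition no test was possible, no difference has a replicate check, and it cannot be said whether the groups overlap.

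Ribosome profiling sequences the pieces of messenger RNA that a ribosome shields from nuclease, so the reads on a coding sequence count the ribosomes found there. A gene's footprint level follows both the amount of its message and the ribosomes on each message. Pyruvate kinase M turns phosphoenolpyruvate into pyruvate at the end of glycolysis, and its PKM2 splice form is the main form in proliferating and embryonic cells. PKM2 has also been described as an RNA-binding protein that associates with ribosomes at the endoplasmic reticulum (ER), where secreted and membrane proteins are made.

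Footprints were counted on the coding sequence (CDS) without its first 15 and last 5 codons. There were 15193841 such reads in siCtrl and 12559907 in siPKM, with a median of 838 and 704 per row. Every row had at least 151 CDS reads in each footprint and RNA library, so genes under that level in any library are not analysed here. For each row, the log2 ratio of siPKM over siCtrl was taken after scaling to the library's sum and centring on the median row. A difference shared by all rows therefore cannot be seen. Levels are given as CPM, a row's CDS reads scaled to 1000000 CDS reads of the library, and intervals in brackets are exact 95% intervals that cover counting error only. Where 2 CPM levels are given, siCtrl comes first, and the single value in brackets after them is the log2 ratio.

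At least 1.5-fold higher in siPKM were 175 rows, 2.68% of all rows, and at least 1.5-fold lower were 100 rows, 1.53%. These shares are the background for the counts given for each gene list. For 80 and 44 of them the counting interval also lay wholly past 1.5-fold. Over all rows the SD of the log2 ratio was 0.28, with 1% of rows below -0.67 and 1% above 0.80. Counting error was smaller than this spread, with a median interval of ±0.15, which reaches further than a standard error. In the row nearest the threshold on the higher side, the basement membrane proteoglycan agrin (Agrn), the log2 ratio was 0.59, and just outside it the ER oxidoreductase Tmx1 stood at 0.58. The low-count floor shortened both tails, since 691 rows had too few siCtrl reads to be counted lower and 313 too few siPKM reads to be counted higher. The higher rows had a median of 408 siCtrl reads, against 888.5 for the lower rows and 838 for all rows. The siCtrl reads divide the ratio that chose the rows, which by itself sets the higher rows low in this measure. By the mean of both libraries, 40 higher and 11 lower rows lay below 300 reads, where 1024 of all rows lay. From 300 to 600 reads there were 57 higher and 33 lower rows among 1671.

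**Figure D1:**
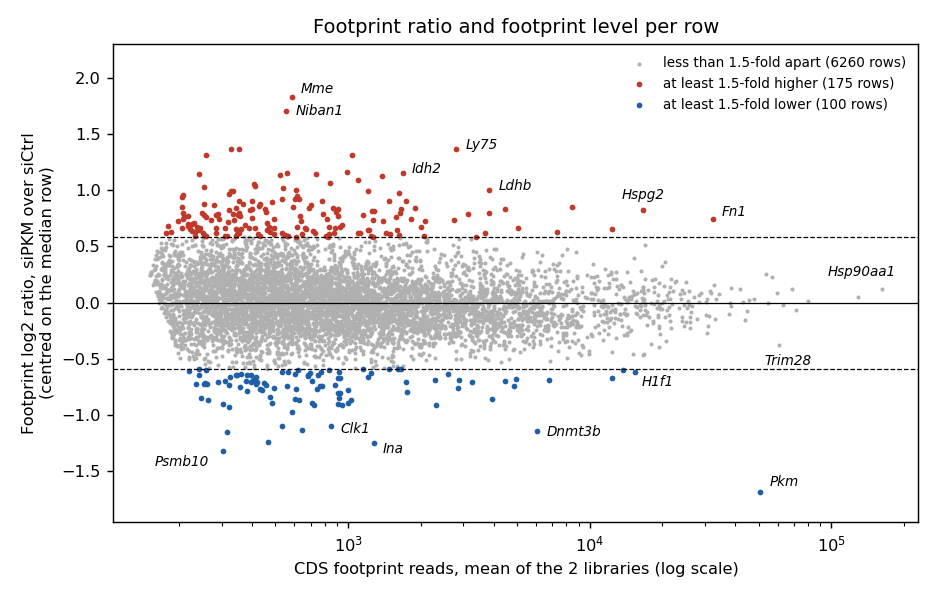
Footprint log2 ratio of siPKM over siCtrl for each of 6535 rows (y axis) against the mean CDS footprint reads of both libraries (x axis, log scale). Each point is a row and dashed lines mark 1.5-fold. Of the 175 higher rows, 40 had a mean below 300 reads and 57 one from 300 to 600. Pkm stands alone at high counts with a ratio of -1.68.

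Footprints of embryonic stem cell genes were present in both libraries, and 20 genes of the core pluripotency list were measured. Pou5f1, which encodes the factor OCT4, had 657 CPM in siCtrl and 596 CPM in siPKM. Sox2, its partner on DNA, had 312 and 288 CPM. Dppa5a, an RNA-binding protein of these cells, had 1857 and 1858 CPM. Marker lists of other cell types also had measured genes, 8 for primitive endoderm, 6 for neural cells, 3 for trophoblast and 1 for fibroblasts, but 0 for mesoderm. The fibroblast marker was vimentin (Vim), at 394 and 536 CPM. In siCtrl the endoderm genes Apoe and Lamb1 had 444 and 441 CPM, and the neural gene Tubb3 had 125 CPM. In these bulk libraries, fewer cells of a type and less RNA per cell cannot be told apart.

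Pkm, the target, had the lowest ratio of the table. Its row (Pkm2 in the table) held 5304 CPM in siCtrl and 1682 CPM in siPKM, a log2 ratio of -1.68 (-1.70 to -1.66). The loss of 0.362 percentage points was 6.11% of all the share lost by any row. In total, 5.93% of CDS footprints lay in other rows in siPKM than in siCtrl, and 208 rows made up 50% of the gain and 210 rows 50% of the loss. The difference was thus spread over many rows, although the 175 higher rows made 14.4% of the gain and the 100 lower rows 14.2% of the loss. A share of footprints also grows with the length of the coding sequence, so these shares rank rows by ribosomes and not by messages. The 5 largest gains of share were those of Fn1, Hsp90aa1, Eef1a1, Eef2 and Hspg2. Cytosolic HSP90 alpha (Hsp90aa1) had 11133 CPM in siCtrl and 12296 CPM in siPKM, at a log2 ratio of 0.12. The elongation factor Eef1a1 had 3536 and 4284 CPM (0.26), and Eef2, which moves the ribosome along the message, 3770 and 4483 CPM (0.23). After Pkm, the largest loss was that of Trim28, a corepressor that silences retroelements, at 4853 and 3785 CPM (-0.38).

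Glycolytic enzymes and transporters were split between both directions. Of 18 measured genes, 1 was at least 1.5-fold higher and 2 were lower, with a list median of 0.04. The 7 enzymes of the upper part, from hexokinase to aldolase, had a median of 0.24, with 6 above 0 and 0 past 1.5-fold. Of the enzymes between them and Pkm, phosphoglycerate kinase (Pgk1) stood at 0.04, triose phosphate isomerase (Tpi1) at -0.29, phosphoglycerate mutase (Pgam1) at -0.45 and the enolase Eno3 at -0.53. Lactate dehydrogenase A (Ldha), which turns pyruvate into lactate, had 1159 and 777 CPM. Lactate dehydrogenase B (Ldhb), the subunit of the heart form, had 189 and 383 CPM. The log2 ratio of Ldha was -0.60 (-0.63 to -0.56) and that of Ldhb 1.00 (0.93 to 1.07), so the subunits of 1 enzyme stood on opposite sides. Ldha fell short of 1.5-fold without the centring, at -0.58. The glucose transporter Slc2a3 had 1015 and 1475 CPM at a ratio of 0.52, and Slc2a1 803 and 972 CPM at 0.26. Glycolytic genes have many near-identical pseudogenes, which makes their single values uncertain.

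The steps that take pyruvate into mitochondria lay above the median row more often than not. Of 30 genes of pyruvate entry and the citric acid cycle, 22 were above 0, 2 were at least 1.5-fold higher and 0 lower, with a median of 0.11. Mitochondrial isocitrate dehydrogenase (Idh2), which makes NADPH, had 77.4 CPM in siCtrl and 174 CPM in siPKM, a log2 ratio of 1.15. Pyruvate carboxylase (Pcx), which makes oxaloacetate from pyruvate, had 45.5 and 83.0 CPM, a ratio of 0.84 (0.70 to 0.98). Mpc1 (Brp44l in the table), a subunit of the mitochondrial pyruvate carrier, stood at 0.43 and the pyruvate dehydrogenase subunits Pdha1 and Pdhb at 0.41 and 0.35. The lowest member was the succinate dehydrogenase subunit Sdhc, at -0.31. Of the same complex, the other membrane subunit Sdhd stood at -0.23, whereas the catalytic subunits Sdha and Sdhb stood at 0.30 and 0.32.

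Lipid genes lay on both sides of the median row. The 43 measured genes of lipid droplets and fatty acid use had a median of 0.07, with 4 at least 1.5-fold higher and 2 lower. Plin2, the coat protein of lipid droplets, had 14.7 and 38.6 CPM (1.37). Heart fatty acid-binding protein (Fabp3) had 45.3 and 103 CPM (1.16), while Fabp5, the epidermal form, had 35.4 and 25.9 CPM (-0.47). Cpt1a, the gate for fatty acid entry into mitochondria, had 70.0 and 118 CPM (0.73). These genes serve storage, binding and oxidation. Slc25a20, the carnitine carrier that works with Cpt1a, stood at 0.83 with 23.8 and 43.1 CPM. Malic enzyme (Me1), which makes NADPH and pyruvate, had 18.2 and 34.5 CPM (0.90). The acyl-CoA synthetase and transporter Slc27a2 went the other way, at 61.1 and 28.3 CPM (-1.13), as did the phosphatidate phosphatase Lpin1, at 28.0 and 17.9 CPM (-0.66). Cholesterol synthesis and uptake had a median of 0.18 over 18 genes, with the sterol oxidase Msmo1 (Sc4mol in the table; 66.6 and 119 CPM, 0.81) as the 1 gene past 1.5-fold. Fatty acid synthase (Fasn) stood at -0.28 and ATP citrate lyase (Acly) at -0.28, both enzymes of fatty acid synthesis with high counts.

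Extracellular matrix genes stood mostly above the median row. Of 20 measured, 8 were at least 1.5-fold higher and 0 lower, against 2.68% and 1.53% of all rows. Their median was 0.38, with 15 above 0. Together they took 0.723% (0.719 to 0.727) of siCtrl footprints and 0.981% (0.976 to 0.987) of siPKM footprints. Basement membrane proteins were prominent. Nidogen 1 (Nid1), which links laminin to collagen IV, had 235 and 424 CPM (0.83). Perlecan (Hspg2), a heparan sulfate proteoglycan, had 881 and 1581 CPM (0.82), and the laminin chain Lama1 205 and 362 CPM (0.80). Within laminins the values parted, since the chain Lamb1 stood at -0.13 with 441 and 409 CPM and Lamc1 at 0.14 with 729 and 816 CPM. The collagen IV chains Col4a1 and Col4a2, which form 1 molecule, had ratios of 0.60 (0.48 to 0.71) and 0.92 (0.76 to 1.09). Fibronectin (Fn1), the adhesive glycoprotein with the largest gain of share in the table, had 1767 and 2998 CPM (0.74). Fibrillin 1 (Fbn1) rested on 154 and 207 reads, and its ratio of 0.68 (0.37 to 0.99) came with an RNA ratio of 0.11.

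Several of these genes are also markers of primitive endoderm, the lineage that lays down basement membrane in the early embryo. Of that list 8 genes were measured, 4 were at least 1.5-fold higher (Col4a2, Apoe, Lama1 and Col4a1) and 0 lower, with a median of 0.40. Its summed share was 0.173% in siCtrl and 0.231% in siPKM. Apolipoprotein E (Apoe), a lipid carrier outside the matrix list, had 444 and 812 CPM (0.85). The endocytic receptors Lrp2 and Cubn of the same lineage stood at -0.04 and 0.01. Its transcription factors Gata4, Gata6 and Sox17 are not analysed here. The part of this cell type in the matrix values was not tested.

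A list of secreted or membrane-bound proteases and of protease inhibitors had a median of 0.50. Of its 17 genes, 5 were at least 1.5-fold higher and 0 lower. The proprotein convertase Pcsk6, which activates TGF-beta family ligands, had 36.1 and 65.8 CPM (0.84). Htra1, a secreted serine protease, had 13.6 and 35.7 CPM (1.37). Neprilysin (Mme), a membrane peptidase, had 19.4 and 69.9 CPM and the highest ratio of the table. Timp1, an inhibitor of matrix metalloproteases, stood at 0.59 (0.39 to 0.79), and with 5 reads added to each count it stood at 0.58. The list reached down to Ece1, the endothelin-converting enzyme, at -0.22.

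Growth factors and their antagonists had members at both ends and a median of 0.02. Of 19 genes, 4 were at least 1.5-fold higher and 2 lower. Sfrp1, a secreted antagonist of Wnt, had 25.6 and 57.8 CPM (1.15). Follistatin-like 1 (Fstl1) had 52.0 and 112.5 CPM (1.09), and the ligand Bmp4 10.7 and 19.7 CPM (0.85). Ccn2 (Ctgf in the table), a target of YAP, stood at 0.62. The Nodal antagonist Lefty1 had 80.4 and 46.7 CPM (-0.80), and Notum, which inactivates Wnt proteins, 40.0 and 24.4 CPM (-0.73). Nodal itself had 111 and 90.5 CPM (-0.31), short of 1.5-fold, and Lefty2 stood at 0.15.

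Receptors and adhesion proteins lay closer to the median row. Of 68 genes 51 were above 0 and 4 were at least 1.5-fold higher, against 0 lower, with a median of 0.16. The highest was Ly75 (DEC-205), an endocytic receptor, at 117 and 305 CPM (1.36; 1.28 to 1.45). The receptor for insulin-like growth factor 1 (Igf1r) had 26.5 and 42.8 CPM (0.67). The glypican Gpc4, a co-receptor with heparan sulfate, had 113 and 183 CPM (0.68). Integrin alpha 3 (Itga3), which binds laminin, had 87.7 and 154 CPM (0.79). Other alpha chains lay on the same side, with Itga6 at 0.57, Itga9 at 0.56, Itgav at 0.49 and Itga5, the fibronectin receptor chain, at 0.46. The lowest member was the adhesion protein Epcam, at 231 and 166 CPM (-0.50). Among cadherins, Cdh1 had 669 and 535 CPM (-0.34) and Cdh3 stood at 0.01. Of 62 solute carriers outside Slc25, 5 were higher and 2 lower, with a median of 0.07. The zinc transporter Slc39a4 stood at 0.92 and the amino acid transporter Slc38a2 at -0.70.

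**Figure D2:**
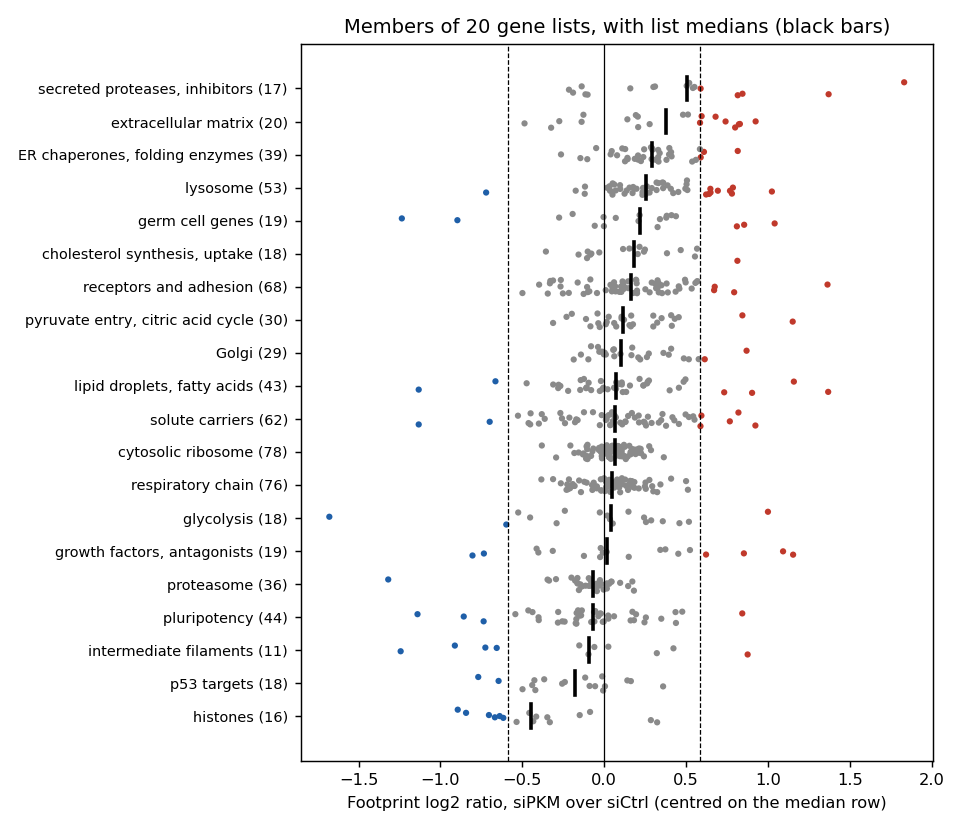
Footprint log2 ratios of the members of 20 gene lists (x axis; number of measured genes in brackets), with the list median as a black bar, dashed lines at 1.5-fold, and members past it in red (higher) or blue (lower). Proteases, secreted or membrane-bound, with protease inhibitors (median 0.50) and matrix (0.38) lie to the right and histones (-0.45) to the left. Cytosolic ribosomal proteins (0.06) cluster near 0.

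Chaperones and folding enzymes of the ER were nearly all above the median row. Of 39 genes 35 were above 0, with 3 past 1.5-fold on the higher side and 0 on the lower side, and a median of 0.29. They took 0.915% (0.910 to 0.920) of siCtrl footprints and 1.11% of siPKM footprints. All 17 chaperones lay above 0. The genes past the threshold serve collagen or disulfide bonds. Serpinh1 (HSP47), the collagen chaperone, had 68.3 and 122 CPM (0.82), a row that also counts among the protease inhibitors above. Plod1, which hydroxylates lysines of collagen, had 37.2 and 57.6 CPM (0.61), and Erp44, which retains enzymes in the early secretory pathway, 47.2 and 72.1 CPM (0.59). Other genes of collagen processing did not pass 1.5-fold and lay on both sides. P3h1 (Lepre1 in the table) stood at 0.38, P4ha2 at 0.33, Plod2 at 0.32 and Plod3 at 0.29. Crtap stood at -0.15 and the prolyl isomerase Fkbp10 lowest at -0.26. The abundant chaperones Hspa5 (BiP), with 1276 and 1628 CPM, and Hsp90b1 (GRP94), with 1521 and 1757 CPM, stood at 0.33 and 0.19. ER-associated degradation, which sends misfolded proteins to the proteasome, had a median of 0.07 with 1 of 20 genes past the threshold. That gene was the lectin Os9, at 12.4 and 25.6 CPM (1.03; 0.76 to 1.29). Of 48 genes of ER entry and N-glycosylation 37 lay above 0, with 0 past 1.5-fold and a median of 0.08.

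ER chaperone genes are known to be switched on together through the ER stress element, a CCAAT box followed 9 bases later by CCACG. Promoter sequences, from 250 bases before to 50 after the start, came from RefSeq on GRCm38.p6 and were found for 32 of the 39 genes. Both strands were searched. A gene counted once, with the element in any of its promoters, and genes on a chromosome left out of the search count as not found. The element was found for 7 of the 32 genes. It was found for 12 of 5286 table rows with a promoter (0.227%) and for 0.137% of the 27025 genes searched. Sites of 3 of the 7 genes are shown, since these genes are among the most abundant ER chaperones. The 2 parts of the element are in capitals, 5′ to 3′ on the strand named.
Hspa5, chr2:34772020-34772048, plus strand: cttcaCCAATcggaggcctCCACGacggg
Calr, chr8:84847070-84847098, plus strand: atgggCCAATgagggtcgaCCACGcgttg
Hsp90b1, chr10:86705528-86705556, plus strand: actcaCCAATcgtgcctcaCCACGcactc
The 7 genes with the element had a median footprint ratio of 0.19. Genes of the list with a promoter found but without the element had a median of 0.29. Calr, the lectin chaperone calreticulin, was the highest of the 7 at 0.40, and Pdia6, a disulfide isomerase, the lowest at 0.05. None of the 3 genes past 1.5-fold was among them.

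Most lysosomal genes lay above the median row. Of 53 genes 49 were above 0, with 9 past 1.5-fold on the higher side and 1 on the lower side, and a median of 0.25. The 25 hydrolases and related luminal proteins had a median of 0.36, and all 28 membrane proteins and proton pump genes lay above 0 with a median of 0.24. Hexosaminidase A (Hexa), which degrades gangliosides, had 26.2 and 54.1 CPM (1.02). Cathepsin L (Ctsl) had 168 and 294 CPM (0.79), and acid ceramidase (Asah1) 62.0 and 108 CPM (0.78). Further genes past 1.5-fold included the membrane protein Lamp2 (0.77), the peptidase Tpp1 (0.69), the sterol carrier Npc2 (0.64) and the proton pump partners Atp6ap2 (0.65) and Atp6ap1 (0.62). Beta-glucuronidase (Gusb) was the 1 lower gene, with 336 and 171 reads (-0.72). Golgi genes had a median of 0.10, with the mannosidase Man2a1 (0.87) and the calcium-binding protein Nucb1 (0.61) past 1.5-fold among 29.

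Many lysosomal promoters carry an E-box bound by TFEB and related factors, searched here as TCACGTGA, which reads the same on both strands. It was found for 9 of 37 lysosomal genes with a promoter, against 2.95% of the 5286 table rows with a promoter and 1.13% of the genes searched. The sites of 2 cathepsin genes are shown, with the E-box in capitals.
Ctsa, chr2:164833750-164833777, plus strand: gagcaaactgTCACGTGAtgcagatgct
Ctsd, chr7:142387909-142387936, minus strand: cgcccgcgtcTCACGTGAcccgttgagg
Of the lysosomal genes with a promoter found, those with the E-box had a median footprint ratio of 0.25 and those without it one of 0.24. Cathepsin A (Ctsa) stood at 0.51 and cathepsin D (Ctsd) at 0.26. In all, 7 motifs were searched after the ratios were known. Counts are again of genes with a promoter found. The sterol response element (TCACNCCAC) was in 0 of 12 cholesterol genes, against 74 of the 5286 table rows with a promoter. The amino acid response element (TGATGNAAC) was in 3 of 15 ATF4 targets, against 0.568% of such rows. The octamer (ATTTGCAT) was in 3 of 15 histone genes, against 1.31%. The AP-1 site (TGACTCA) was in 4 of 36 cytoskeletal and 0 of 15 matrix genes, against 3.58%, and the TEAD site (GGAATG) in 13 of 36 cytoskeletal genes, against 13.1%. A match of letters does not show that a factor binds there.

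**Figure D3:**
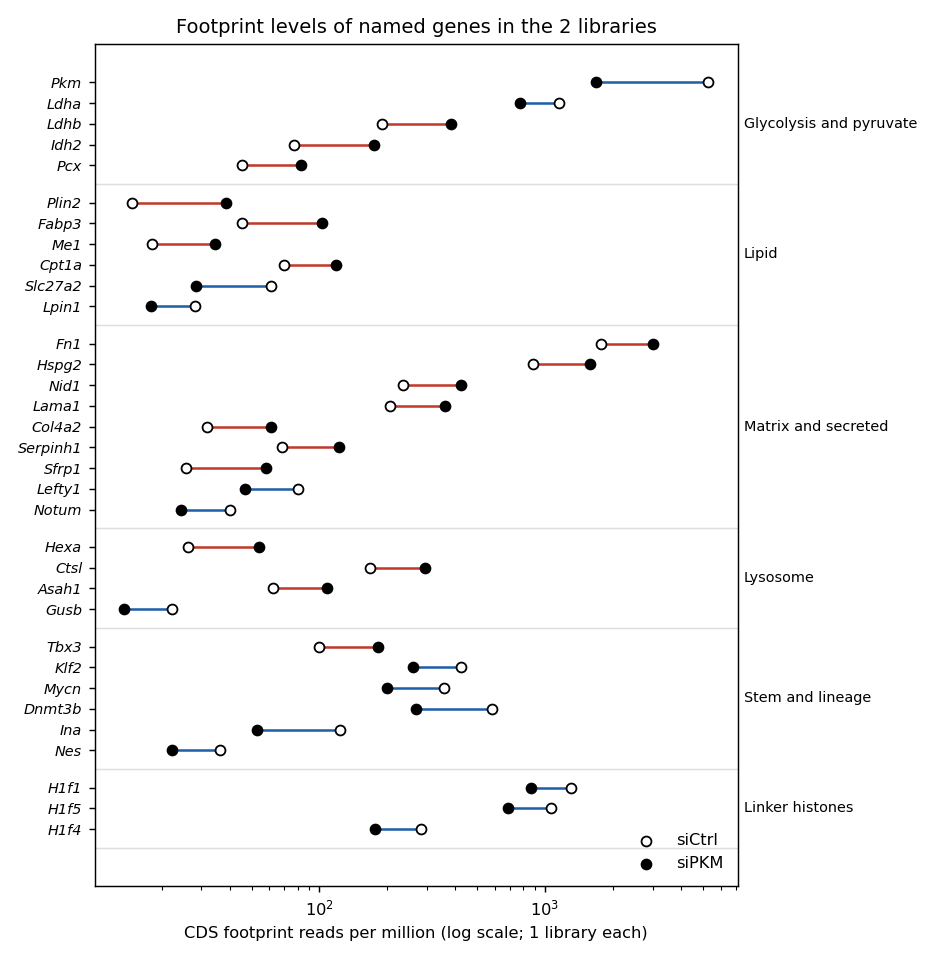
Footprint CPM (x axis, log scale) of named genes in siCtrl (open circles) and siPKM (filled circles), 1 library each, with red lines where siPKM was higher and blue lines where it was lower. Ldha and Ldhb shift in opposite directions, as do Sfrp1 and Lefty1, and the 3 linker histones shown, not all of those measured, shift to lower levels.

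Pluripotency genes differed by class. All 20 core genes lay below 0, with a median of -0.17, and 1 of them, Mycn, was at least 1.5-fold lower. Myc, Fgf4 and Dppa5a lay closer to 0 than the 0.0211 that centring removed, so their side depends on it. The counting intervals of these genes and of Tdgf1 and Zfp281 included 0. Mycn, a growth-promoting transcription factor, had 356 and 199 CPM (-0.86; -0.93 to -0.79), whereas Myc had 146 and 147 CPM (-0.00). Jarid2, a partner of Polycomb repressive complex 2, had 755 and 556 CPM (-0.46). The 20 genes listed for the naive state had a median of 0.17, with 13 above 0. This naive list includes Manba, a lysosomal mannosidase, at -0.17. Tbx3, a naive-state transcription factor, had 99.8 and 182 CPM (0.84), and Esrrb, a nuclear receptor of the naive network, 476 and 616 CPM (0.35). Klf2, of the same network, had 425 and 259 CPM (-0.74), and Zfp42 (REX1), a common naive marker, 1002 and 751 CPM (-0.44). Of the primed state 4 genes were measured, with a median of -0.07 and 1 past 1.5-fold. That gene was the DNA methyltransferase Dnmt3b, with 579 and 267 CPM (-1.14; -1.20 to -1.08), while Dnmt3a stood at 0.02, Foxd3 at -0.05 and Zic2 at -0.08.

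Most neural markers measured lay below the median row. Of 6, 4 were at least 1.5-fold lower and 1 higher, against 1.53% and 2.68% of all rows, with a median of -0.62, and their summed share was 0.0387% in siCtrl and 0.0280% in siPKM. Alpha-internexin (Ina), a neuronal intermediate filament, had 124 and 53.1 CPM (-1.24). Nestin (Nes), the filament of neural progenitors, had 36.3 and 22.3 CPM (-0.73), and the neuron-specific tubulin Tubb3 125 and 84.6 CPM (-0.59; -0.70 to -0.48). Tubb3 lay just past 1.5-fold and fell short of it in 5 of the 6 alternative calculations. Ncam1, an adhesion molecule, was the 1 higher gene at 0.68. Among 11 intermediate filament genes, 4 were at least 1.5-fold lower. Ina, Nes and neurofilament light chain (Nefl; -0.66) are also neural markers counted above. Neurofilament heavy chain (Nefh), at 85.6 and 46.2 CPM (-0.91), is not in the neural list. Keratin 8 (Krt8), of simple epithelia and trophoblast, had 22.4 and 41.8 CPM (0.88) and its partner Krt18 20.5 and 26.0 CPM (0.32). Tfap2c (Tcfap2c in the table), a trophoblast transcription factor, stood at -0.76. Germ cell genes reached both ends, with 3 of 19 higher and 2 lower and a median of 0.22. Dazl, an RNA-binding protein of germ cells, had 19.9 and 41.6 CPM (1.04), and the meiotic chromosome proteins Stag3 and Sycp3 stood at 0.85 and 0.81. Dmrt1, a testis transcription factor, had 45.1 and 19.4 CPM (-1.24), and Tdrd12, of the piRNA pathway, 82.7 and 45.1 CPM (-0.90).

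Replication-dependent histones had the lowest median of any list with more than 6 measured genes, at -0.45. Of 16 genes 6 were at least 1.5-fold lower and 0 higher, and their summed share was 0.593% in siCtrl and 0.425% in siPKM. Linker histones gave most of the footprints. H1f1 (Hist1h1a) had 1307 and 865 CPM (-0.62), H1f5 (Hist1h1b) 1068 and 682 CPM (-0.67) and H1f4 (Hist1h1e) 283 and 176 CPM (-0.70). H1f3 (Hist1h1d) and H1f2 (Hist1h1c) stood closer to 0, at -0.33 and -0.35. The lowest was the core histone H4c9 (Hist1h4i), with 975 and 440 reads (-0.89). Histone genes are near-identical copies, so how reads were divided among them affects single values. The 55 genes of DNA replication had a median of -0.07, with 0 past the threshold in either direction. The 52 genes of mitosis and cyclins had a median of -0.12, with the cell cycle inhibitor Cdkn1c as the 1 lower gene, at 65.9 and 35.6 CPM (-0.91).

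Genes of general protein production and turnover stayed close to the median row. Among 78 cytosolic ribosomal proteins, 0 were past 1.5-fold, ratios ran from -0.38 (Rpl10l) to 0.36 (Rpl23a), and the summed share was 9.07% in siCtrl and 9.48% in siPKM. Since the handling of multiply mapped reads is not stated, single values of ribosomal proteins are uncertain. The 72 mitochondrial ribosomal proteins had a median of -0.09 and 76 nuclear-encoded respiratory chain subunits one of 0.05, with 0 past the threshold in each. Translation factors (62, median -0.08) and tRNA synthetases (38, -0.08) also had 0. The list of translation factors includes Argonaute genes and eIF2 kinases, which share the Eif names. Its ends were Ago1 (Eif2c1 in the table) at -0.34 and the kinase Eif2ak2 at 0.57. Of 36 proteasome subunits, 1 was lower, the immunoproteasome subunit Psmb10, at 29.9 and 12.2 CPM (-1.32). Of 77 splicing factors 58 were at or below 0, with a median of -0.14. The kinase Clk1, which phosphorylates SR splicing proteins, had 80.6 and 38.2 CPM (-1.10), and Prpf40b, a spliceosomal protein, was the 1 higher factor at 0.77. Ak1, an adenylate kinase, had 30.1 and 13.8 CPM (-1.15) and was the 1 gene past 1.5-fold among 45 of the pentose phosphate, serine, folate and nucleotide pathways. Targets of p53 had a median of -0.18, with the RNA-binding protein Zmat3 at -0.77. Trp53inp1, a cofactor of p53, stood at -0.64 (-0.54 over the whole transcript). The list also holds p53 itself (Trp53), at -0.06 in footprints and 0.40 in RNA. Targets of ATF4, the factor of the amino acid response, had a median of 0.09. Asparagine synthetase (Asns), the 1 past 1.5-fold among 20, had 700 and 1117 CPM (0.65), while Atf4, itself in the list, stood at -0.38.

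Among the rows with the 12 highest and the 12 lowest ratios were genes of none of these lists. Niban1 (Fam129a in the table), a stress-induced regulator of translation, had 19.5 and 64.7 CPM (1.70). Renbp, an enzyme of N-acetylglucosamine metabolism, had 44.6 and 112 CPM (1.31), and Rnf128, a membrane-bound ubiquitin ligase, 11.1 and 27.9 CPM (1.31). Fgfbp1, a secreted carrier of fibroblast growth factors, rested on 169 and 314 reads (1.15), and the unconventional myosin Myo18a had 33.9 and 76.1 CPM (1.15). On the low side, Castor1 (Gatsl3 in the table), an arginine sensor upstream of mTORC1, had 50.3 and 24.0 CPM (-1.09; -1.29 to -0.90). Clstn3, a synaptic adhesion protein, stood at -0.98 and the alpha-actinin Actn3 at -0.93.

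RNA from the same conditions was set beside the footprints, as a readout the choice of rows did not use. In RNA, 2.88% of rows lay at least 1.5-fold above siCtrl and 1.27% at least 1.5-fold below. Of the 175 rows higher in footprints, 103 were also at least 1.5-fold higher in RNA and all 175 had RNA above the median row. Their RNA ratios ran from 0.11 to 1.67 with a median of 0.63. Of the 100 lower rows, 48 were at least 1.5-fold lower in RNA, 97 lay below 0 and the median was -0.56. Across the 6535 rows, which are not independent replicates, footprint and RNA ratios had a Pearson correlation of 0.73. The list medians of both readouts were close for lysosomal genes (0.25 in footprints, 0.26 in RNA), matrix genes (0.38 and 0.34) and histones (-0.45 and -0.46). They were farther apart for ER chaperones (0.29 and 0.16), cytosolic ribosomal proteins (0.06 and -0.08) and chaperonins with heat shock proteins (-0.01 and -0.21), where footprints stood above RNA. Footprints stood below RNA for naive state genes (0.17 and 0.36) and core pluripotency genes (-0.17 and -0.05). Both readouts came from the same conditions with 1 library each, so the RNA is no replicate of the footprints. Rows past 1.5-fold in footprints with RNA within 0.1 of the median row numbered 0 of 175 on the higher side and 5 of 100 on the lower side. Over all 6535 rows, 2071 had RNA that close to the median row. Bdp1, a subunit of the RNA polymerase III factor TFIIIB, had 861 and 396 footprint reads and 1385 and 1160 RNA reads, at ratios of -0.87 (-1.04 to -0.69) and -0.08 (-0.19 to 0.04). The others, by footprint ratio, were E130309D02Rik (-0.64), the histone H3c3 (Hist1h3c; -0.64), a LINE-1 row named Pol (-0.64), and Taf13 of the TFIID complex (-0.61). The LINE-1 row draws on many copies in the genome, and no source used here states how reads with several matches were handled. Of these 5 rows, 3 fell short of 1.5-fold when more of the transcript was counted. Over the whole transcript, Hist1h3c stood at -0.16, E130309D02Rik at -0.56 and Taf13 at -0.58.

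**Figure D4:**
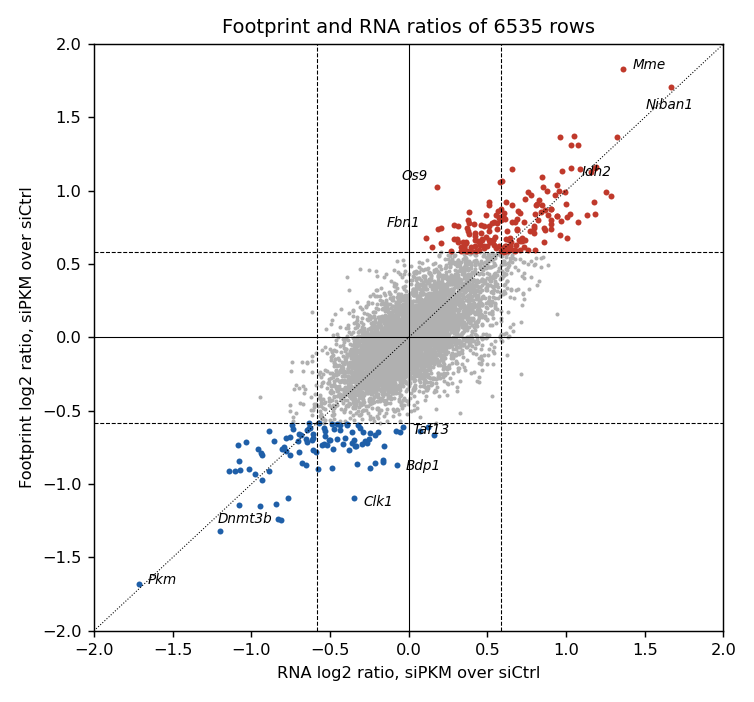
Footprint log2 ratio (y axis) against RNA log2 ratio (x axis) of siPKM over siCtrl for 6535 rows, with dashed lines at 1.5-fold and a dotted line where both are equal. Red points (175 rows higher in footprints) all lie right of 0 in RNA, whereas Bdp1 and Taf13 lie low in footprints with RNA near 0.

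Reads in other parts of the transcript, which had not been used to choose rows, were then examined in the same libraries. Footprints divided among the parts almost alike in both libraries, with 5.42% (siCtrl) and 5.17% (siPKM) in the 5' UTR, 6.90% and 6.77% in the first 15 codons and 0.205% and 0.191% in the 3' UTR. Pooled over the 175 higher rows, the log2 ratio, scaled to each part's sum and not centred, was 0.76 (0.72 to 0.81) in the first 15 codons. It was 0.80 (0.79 to 0.81) in the rest of the CDS and 0.74 (0.70 to 0.78) in the 5' UTR. Of the 129 higher rows with at least 20 reads in the first 15 codons, 118 were above 0 there and 74 at least 1.5-fold higher. In the 100 lower rows, the pooled ratio was -0.70 (-0.73 to -0.67) in the first 15 codons and -0.93 (-0.94 to -0.92) in the rest of the CDS. Pkm held many of these reads, and without it the pooled ratios of the other 99 rows were -0.54 (-0.58 to -0.51) and -0.70 (-0.71 to -0.69). Of 84 lower rows with at least 20 reads in the first 15 codons, 70 were below 0 there and 37 at least 1.5-fold lower. The same counts were not made over all rows, so those of the higher and lower rows have no background share. Counting error is wide at 20 reads, so passing 1.5-fold there says little about a single row. These reads share their libraries with the CDS reads and are no replicate of them.

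**Figure D5:**
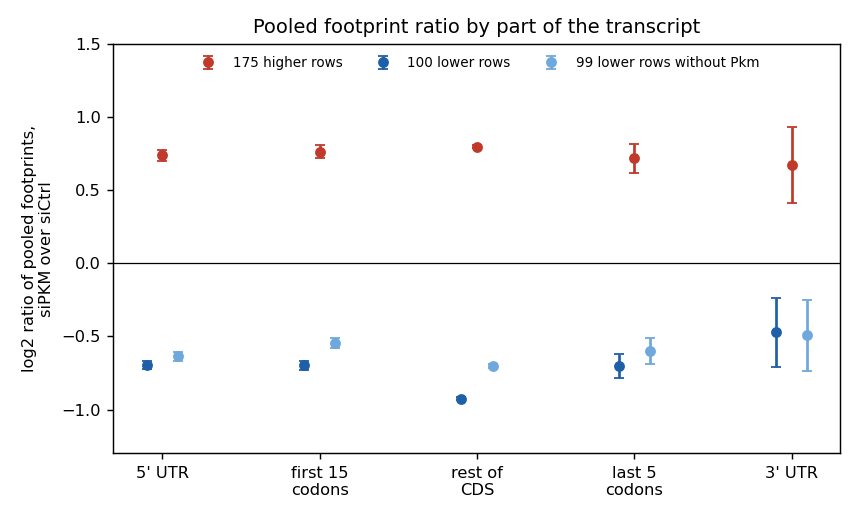
Log2 ratio of pooled footprints, siPKM over siCtrl (y axis), by part of the transcript (x axis) for the 175 higher rows, the 100 lower rows and the 99 lower rows without Pkm. Bars are 95% counting intervals, and every part has the sign of the rest of the CDS, with the lower rows closest to 0 in the 3' UTR (-0.47).

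Crosslinking of tagged PKM2 was compared between the higher and lower rows, from reverse transcription stops in 2 CLIP replicates over siCtrl RNA reads of the whole transcript. The 175 higher rows had a median log2 CLIP over RNA of 0.98, with 1.06 in replicate 1 and 0.92 in replicate 2. The 100 lower rows had a median of -0.45, with -0.36 and -0.47 in the replicates, and all rows one of 0.08. Within each class the values were wide, with an interquartile range of 0.00 to 1.92 in the higher rows and -1.14 to 0.81 in the lower rows. The higher rows were of lower RNA level. They had a median of 587 siCtrl RNA reads, against 1305.5 for the lower rows and 1346 for all rows. In replicates 1 and 2, the median CLIP level was 73.8 and 70.1 CPM in the higher rows, 54.6 and 64.9 CPM in the lower rows and 81.2 and 80.5 CPM over all rows. Since RNA level divides the measure and differed between the classes, its part in the difference was not tested.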

How the data were processed

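The authors deposited raw read counts per transcript region for the footprint and RNA libraries, and raw counts of reverse transcription stops for CLIP, per the file headers. They also deposited log2 RPM values, used here as an alternative. The submitters' processing notes name cutadapt, Bowtie2 and the build mm9. No source used here states their versions, the strand setting or the handling of multiply mapped reads.

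CDS counts without the first 15 and last 5 codons were scaled to library sums, and log2 ratios were centred on the median of 6535 rows, which removed 0.02. No pseudocount was added. Intervals are exact Clopper-Pearson 95% intervals of counts. Read counts made without molecular identifiers can hold 1 molecule more than once. CLIP over RNA used 0.5 added counts. RefSeq accessions of 6471 rows matched the GRCm38.p6 gene table, used for current names, and 640 rows had a new symbol. Python 3.11.15, numpy 2.4.6, pandas 2.3.3, scipy 1.17.1 and, for the TMM scaling alternative, edgeR 4.0.16 in R 4.3.3 were used. The ratio and interval code was tested on simulated data.

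Genes and the 44 lists were chosen with earlier results of these data known. Named genes were Pkm, the 12 highest and 12 lowest ratios with intervals past 1.5-fold, the 5 largest gains and losses of share, up to 6 rows in each direction with RNA within 0.1 of the median, and members of lists past 1.5-fold or at their ends. Further genes were named from the lists after their values were seen. Counts and medians stand in place of tests. Scaling, pseudocount, count floor, region, rows per symbol and fold were varied. A planned comparison by protein N terminus was not run, since no protein sequences were used here.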

Additional observations from a re-analysis of the deposited data

How the results depend on the processing

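No paired analysis was possible because each siRNA condition had 1 footprint library, so nothing could be paired or left out. Against 175 higher and 100 lower rows, the counts were 727 and 568 at a fold of 5 to 4, 22 and 9 at 2-fold, 80 and 44 with the counting interval wholly past 1.5-fold, and 88 and 49 among rows with a mean of at least 600 reads. These differ by construction, through the threshold or the number of rows. Without centring the counts were 192 and 91, with TMM factors 179 and 96, with 5 reads added 168 and 97, over the whole transcript 170 and 90, and from the authors' deposited log2 RPM 190 and 91. Of 344 alternative list medians 335 stayed within the spread used to judge them. Medians that changed sign were those of chaperonins and heat shock proteins (-0.01, and 0.010 without centring), Zfp genes (0.01, and -0.077 with at least 600 reads), interferon genes (0.00, -0.015 with the first 15 and last 5 codons added, and -0.011 over the whole transcript) and trophoblast markers (0.32, and -0.74 with at least 600 reads). The median of neural markers was -0.56 with at least 600 reads. The cause of these shifts was not tested. Of 107 named genes past 1.5-fold, 11 fell short of it in at least 1 alternative and 0 of 150 named genes changed sign. The 11 were Agrn, E130309D02Rik, Hist1h3c, Ldha, Slc44a1, Slc4a7, Taf13, Timp1, Trp53inp1, Tubb3 and Zfp229. Median CLIP over RNA was -0.36 without replicate 2 in the lower rows (range -0.47 to -0.36) and 0.92 to 1.06 in the higher rows. The comparison by hydrophobic N terminus was not run. Below a mean of 300 reads the median counting interval was ±0.27, and the SD over those 1024 rows was 0.29. These values are on different scales, since the interval reaches further than a standard error. Counting error was therefore smaller than the SD in those rows too.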

Other observations

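Actin and contractile genes, with targets of YAP and SRF, had a median footprint ratio of 0.07, with 4 of 44 at least 1.5-fold higher and 0 lower. The actin-binding calponin Cnn3 had 421 CPM in siCtrl and 660 CPM in siPKM (0.63), the transgelin Tagln2 211 and 331 CPM (0.62), and the angiomotin family member Amotl2 94.1 and 145 CPM (0.60). Some members, picked after their values were seen, stood lower in footprints than in RNA without passing 1.5-fold in footprints. Filamin A (Flna) stood at -0.17 in footprints and 0.45 in RNA, and the spectraplakin Macf1 at -0.27 and 0.45. The scaffold Iqgap1, the lowest of the list, had 339 and 190 footprint reads, at -0.58 in footprints and 0.17 in RNA. Srf, the transcription factor that drives many actin genes, stood at -0.40.

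Imprinted genes had a median of 0.17 over 9 measured genes. Grb10, an adaptor that dampens insulin signalling, had 269 and 357 CPM (0.39), and Impact, a regulator of the kinase GCN2, 248 and 329 CPM (0.39). Cdkn1c (-0.91) and Phlda2 (154 and 110 CPM; -0.50), neighbours in 1 imprinted cluster, stood at the other end. Interferon and antigen presentation genes had a median of 0.00, with 1 of 18 higher and 1 lower. The lower gene was the immunoproteasome subunit Psmb10 (-1.32), and Ifitm1 and Bst2, both antiviral membrane proteins, stood at -0.33 and -0.23. The antiviral zinc finger protein Zc3hav1 had 35.1 and 58.9 CPM (0.72) and the double-stranded RNA kinase Eif2ak2 19.9 and 29.9 CPM (0.57). Clathrin light chain B (Cltb) was the 1 coat protein past 1.5-fold among 40, at 43.3 and 26.0 CPM (-0.76), while the heavy chain Cltc stood at 0.18.

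In a few genes the parts of the transcript gave different ratios, and these were picked after their values were seen. Over 1574 rows with at least 100 reads in the first 15 codons of each library, the ratio there and in the rest of the CDS had a Pearson correlation of 0.63 across rows, with an SD of the difference of 0.23. The histone H4c9 (Hist1h4i) had 311 and 273 reads in the first 15 codons, a ratio of 0.12 (-0.12 to 0.36), against -0.89 in the rest of the CDS. Rbpms2, an RNA-binding protein, stood at 1.02 (0.74 to 1.30) in the first 15 codons and 0.26 in the rest. Ndufc2, of complex I, stood at -0.30 (-0.67 to 0.06) and 0.41. In the 5' UTR, Ucp2, a mitochondrial carrier, had 507 and 514 reads, a ratio of 0.37 (0.19 to 0.55), against -0.51 (-0.70 to -0.32) in the CDS. Cfdp1 stood at 0.52 in the 5' UTR and -0.20 in the CDS, and the selenoprotein Selenoh (2700094K13Rik in the table) at -0.29 and 0.31.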
